A study of Mus musculus with 2 samples.

Results

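The genes of cAMP breakdown, synthesis and response described here are 10 of the 24346 genes listed in both libraries, taken by symbol. They comprise the phosphodiesterase genes Pde4a, Pde4b, Pde4d and Pde7a, the cyclase gene Adcy7, the protein kinase A subunit genes Prkaca and Prkar1a, the transcription factor genes Creb1 and Crem, and the CREB target gene Per1. All 10 had a row in each library, and all 10 had a mean level of at least 1 FPKM (fragments scaled to transcript length and to the mapped fragments of the library). FPKM is a level per length, so levels of different genes can be set side by side.

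Cyclic AMP is made from ATP by adenylyl cyclases, which receptors coupled to stimulatory G proteins switch on. It releases the catalytic subunits of protein kinase A (PKA) from their regulatory subunits, and PKA then phosphorylates the transcription factor CREB at the promoters of genes such as Per1. Phosphodiesterases end the signal by hydrolysing cAMP. In neutrophils and monocytes cAMP is known to dampen cytokine release and the oxidative burst, and enzymes of the PDE4 family are the main target of drugs that raise it.

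RNA was sequenced from Gr-1+ CD11b+ cells, a gate that holds neutrophils and monocytes, of BALB/c mice given 3% dextran sulfate sodium (DSS, a polymer that causes colitis) for 6 days. The ATPγS library came from cells stimulated with ATPγS, a slowly hydrolysed ATP analogue, at 100 µM for 2.5 hours, where the micro prefix is read from a symbol-font character of the label. The control library came from cells of the same strain and DSS treatment, labelled as stimulated without ATPγS, also for 2.5 hours. Each condition has 1 library, so there is no replicate error and no test. The labels used here do not give the number of mice, their age, the organ or any pooling.

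The recovered depth was 2847000 fragments in the ATPγS library and 2133000 in the control library. Itgam, the gene of CD11b, stood at 144 FPKM with ATPγS and 112 FPKM in control, and the 9 neutrophil markers summed to 40140 and 37270 FPKM, so the labelled cell type was present in both. The 6 monocyte markers summed to 303 and 324.5 FPKM, with 1 log2 ratio above 0, 5 below and 0 past 2-fold. RNA of lymphocytes was present as well. The 8 T and NK cell markers summed to 90.8 FPKM with ATPγS and 260 FPKM in control, and for 6 of them the ATPγS level was lower by 2-fold or more. The 6 B cell markers summed to 258 and 333 FPKM, with 1 past 2-fold on the higher side and 1 on the lower side. None of the markers of either lymphocyte list was at 0. Fewer cells of a type and less RNA per cell cannot be told apart in such bulk values. Olfactory and vomeronasal receptor genes, which sensory neurons use, give the level listed for genes that these cells should lack. Among 1323 such genes the median was 2.26 FPKM with ATPγS and 1.99 FPKM in control, and the 95th percentile was 15.7 and 16.4 FPKM.

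Of the 10 genes, 2 were at least 2-fold higher with ATPγS, Per1 and Pde4a, and 0 were at least 2-fold lower, on the scale log2(FPKM + 1). Of all 18311 genes at a mean of at least 1 FPKM, 13.8% were at least 2-fold higher and 9.91% were lower by that fold or more. At a mean of 1 to 5 FPKM, where both Per1 and Pde4a lie, 21.2% were at least 2-fold higher. That class holds 3 of the 10 genes. Of the other 7 genes 0 were past 2-fold. The share at least 2-fold higher was 10.3% among all genes at 5 to 20 FPKM, where 4 of them lie, and 2.3% at 20 FPKM or more, where 3 lie. With a pseudocount of 5 neither Per1 nor Pde4a was past 2-fold, and a minimum mean of 5 FPKM leaves both out. The median log2 ratio of the 10 genes was 0.04, against 0.01 over all genes, with 6 genes above 0 and 4 below. Of all 18311 genes 9235 lay above 0 and 9075 below. Rescaling the libraries to a median log2 ratio of 0 among genes at 10 FPKM or more shifts values up by at most 0.13, and no gene of the 10 changed its direction under it.

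**Figure D1:**
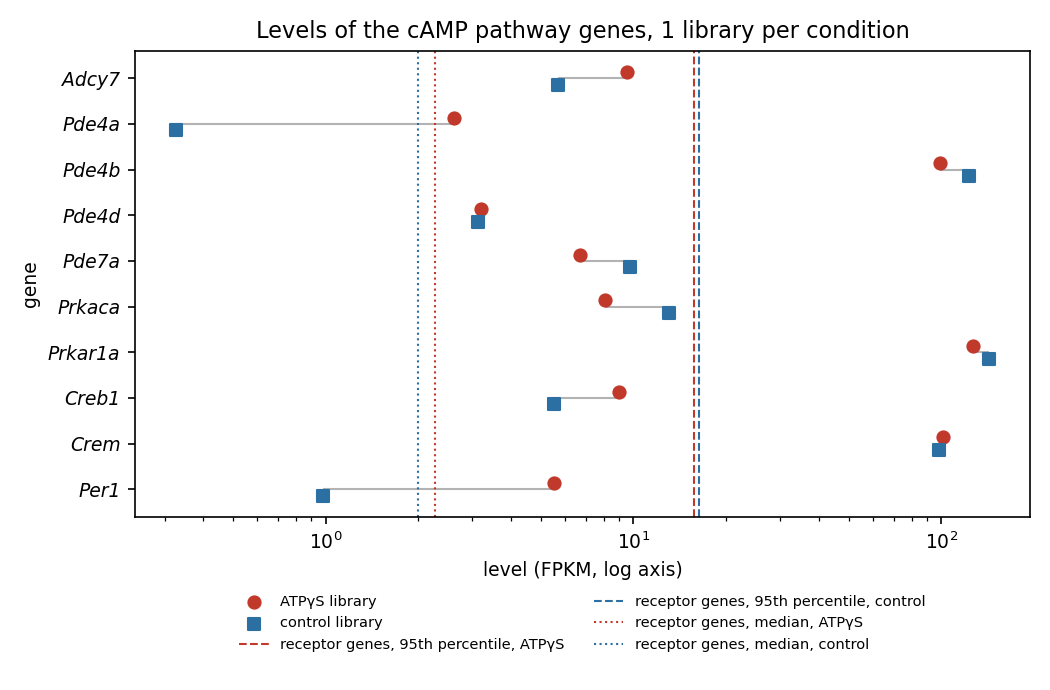
Level of each of the 10 genes in FPKM on a log axis, with a circle for the ATPγS library and a square for the control library. Dotted and dashed lines mark the median and the 95th percentile of 1323 olfactory and vomeronasal receptor genes in each library, and 7 of the 10 genes lie left of the dashed lines in both.

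The levels fell into 2 tiers. Prkar1a, Crem and Pde4b stood between 98.1 and 143 FPKM over both libraries, and each exceeded 99.8% of the receptor genes. The other 7 genes lay between 2.62 and 9.52 FPKM with ATPγS and between 0.326 and 13.1 FPKM in control, under the 95th percentile of the receptor genes in both libraries. In the ATPγS library the order was Prkar1a, Crem, Pde4b, Adcy7, Creb1, Prkaca, Pde7a, Per1, Pde4d and Pde4a. In control Pde4b stood above Crem, Prkaca and Pde7a stood above Adcy7 and Creb1, and Pde4d stood above Per1. With 1 library each, no spread between samples is known for any neighbours in these orders.

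Counting error could be set for each gene from reads estimated from its level, the depth and its transcript length. The 95% exact binomial interval of the ratio of FPKM lay above 1 for 4 genes (Per1, Pde4a, Adcy7 and Creb1), below 1 for 4 (Prkaca, Pde7a, Pde4b and Prkar1a) and included 1 for 2 (Crem and Pde4d). These intervals hold no error between animals, cultures or library preparations. The share of all genes whose interval lies off 1 was not computed, so these counts have no background beside them. Of the receptor genes at a mean of at least 1 FPKM, 46.6% differed at least 2-fold between the libraries.

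**Figure D2:**
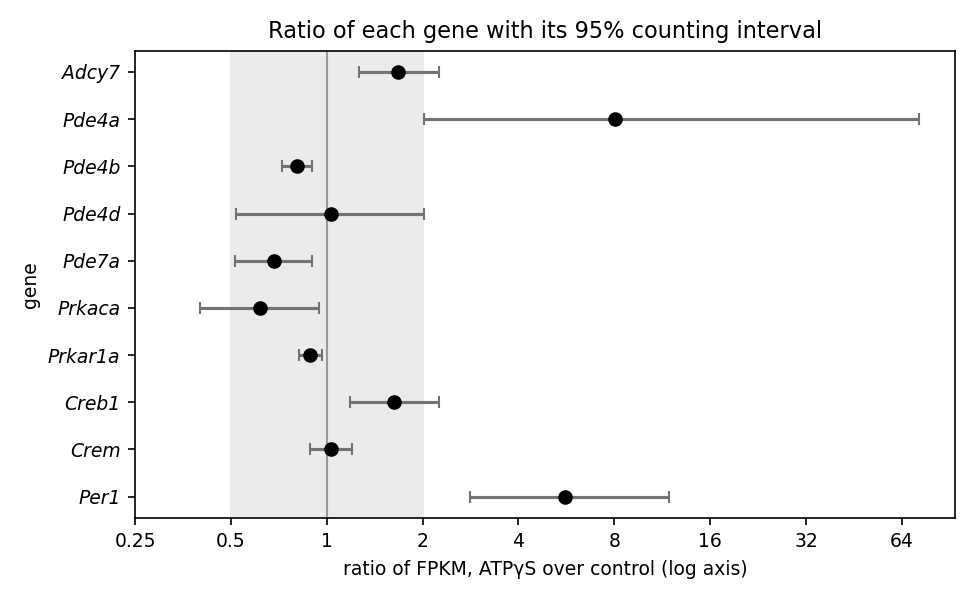
Ratio of FPKM, ATPγS over control, of each gene on a log axis, with its 95% exact binomial interval for counting error and grey shading from 0.5 to 2. The intervals of Per1 and Pde4a lie wholly above 2, and those of Crem and Pde4d include 1.

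Among the phosphodiesterases, Pde4b was by far the most abundant. Pde4b encodes the PDE4 enzyme that inflammatory stimuli induce in leukocytes, and stood at 99.2 FPKM with ATPγS and 123 FPKM in control (chromosome 4, 102087543 to 102607259, plus strand, GRCm38). Its ratio was 0.805, with a counting interval of 0.722 to 0.897 from about 696 and 648 reads, so it was slightly lower with ATPγS. Genes at a mean of 10 FPKM or more had a median log2 ratio of -0.13, and the log2 ratio of Pde4b was -0.31.

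Pde4a, the gene of a PDE4 enzyme of many tissues, stood at 2.62 FPKM with ATPγS and 0.326 FPKM in control (chromosome 9, 21165714 to 21213248, plus strand). The ratio of 8.03 rests on about 22 reads with ATPγS and 2 in control, and its counting interval runs from 2.03 to 72.3. The control level was under the receptor gene median, and the ATPγS level exceeded only 53.2% of the receptor genes. Pde4d, the gene of another PDE4 enzyme, stood at 3.21 FPKM with ATPγS and 3.12 FPKM in control (chromosome 13, 108449948 to 109953461, plus strand; interval of the ratio 0.518 to 2.02), so no difference was detectable at this depth.

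Within the PDE4 family Pde4b made up 92.6% of the summed FPKM with ATPγS and 95.2% in control, Pde4d 2.99% and 2.41%, and Pde4a 2.44% and 0.252%. The summed FPKM of the family was 107.2 with ATPγS and 129.5 in control. Despite its ratio, Pde4a remained a small share of the family in both libraries.

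Pde7a encodes a high-affinity cAMP phosphodiesterase known chiefly from T cells. It stood at 6.685 FPKM with ATPγS and 9.77 FPKM in control (chromosome 3, 19223108 to 19311322, minus strand), a ratio of 0.684 with an interval of 0.517 to 0.901. Of the 8 T and NK cell markers 7 also had log2 ratios below 0 (median -1.64), and the most abundant were Cd3g at 19.4 and 76.5 FPKM and Lck at 20.4 and 64.9 FPKM. The other marker, Cd247, stood at 11.8 and 10.9 FPKM, and the part of these cells in the level of Pde7a was not tested. The preparation does not mark strand, and an annotated gene on the opposite strand (Gm16093) overlaps exons of Pde7a.

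In the list of 16 phosphodiesterase genes that hydrolyse cAMP, 1 (Pde4a) was past 2-fold on the higher side with ATPγS at a pseudocount of 1. On the lower side 0 were, and the median log2 ratio was 0.11, with 9 genes above 0 and 7 below. The shares over all genes were 13.8% and 9.91%. Without a pseudocount the ratios of Pde1a (2.02), Pde7b (2.18), Pde8b (3.12) and Pde11a (2.37) were also past 2-fold. They rest on about 17, 19, 5 and 7 control reads, and their counting intervals start at 1.17, 1.27, 1.03 and 1.02. Intervals lay below 1 for Pde1c, Pde4b and Pde7a. No share over all genes was computed without a pseudocount. Pde4b alone gave 48.5% of the list's summed FPKM with ATPγS and 56.1% in control. Next in level were Pde2a, a phosphodiesterase stimulated by cGMP (27.0 and 21.9 FPKM), and Pde1c, of the family that calcium and calmodulin switch on (16.3 and 20.7 FPKM). Pde1a of the same family stood at 9.91 and 4.90 FPKM.

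Adcy7 encodes the adenylyl cyclase typical of blood cells and was the most abundant cyclase in both libraries. It stood at 9.52 FPKM with ATPγS and 5.68 FPKM in control (chromosome 8, 88272403 to 88329962, plus strand). The ratio was 1.68, with an interval of 1.26 to 2.24 from about 161 and 72 reads. Both levels lie below the 95th percentile of the receptor genes.

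Of 10 cyclase genes 9 passed the filter, and 8 of these had a log2 ratio above 0, under each rescaling too. As deposited, 9235 of all 18311 genes lay above 0. At least 2-fold higher were Adcy6 (8.06 and 3.49 FPKM), Adcy9 (5.34 and 1.61 FPKM) and, chosen after its values were seen, Adcy1 (4.83 and 0.601 FPKM). Of all genes 13.8% were past 2-fold on the higher side, and of the receptor genes at a mean of at least 1 FPKM 25.2%. The list had a median log2 ratio of 0.40, against 0.01 over all genes, and its summed FPKM was 40.1 with ATPγS and 22.9 in control. The median was that of Adcy8, which exceeded only 55.3% of the 250 genes next above and 250 next below it in mean level. Against their own such neighbours Adcy1, Adcy6, Adcy7 and Adcy9 exceeded 81.6% to 93.0%. Adcy2, Adcy4, Adcy5 and Adcy10 exceeded 28.1% to 53.5%. All of these cyclases lie below the 95th percentile of the receptor genes. The ratio of summed phosphodiesterase to summed cyclase FPKM, which no rescaling of a library changes, was 5.10 with ATPγS and 9.58 in control.

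**Figure D3:**
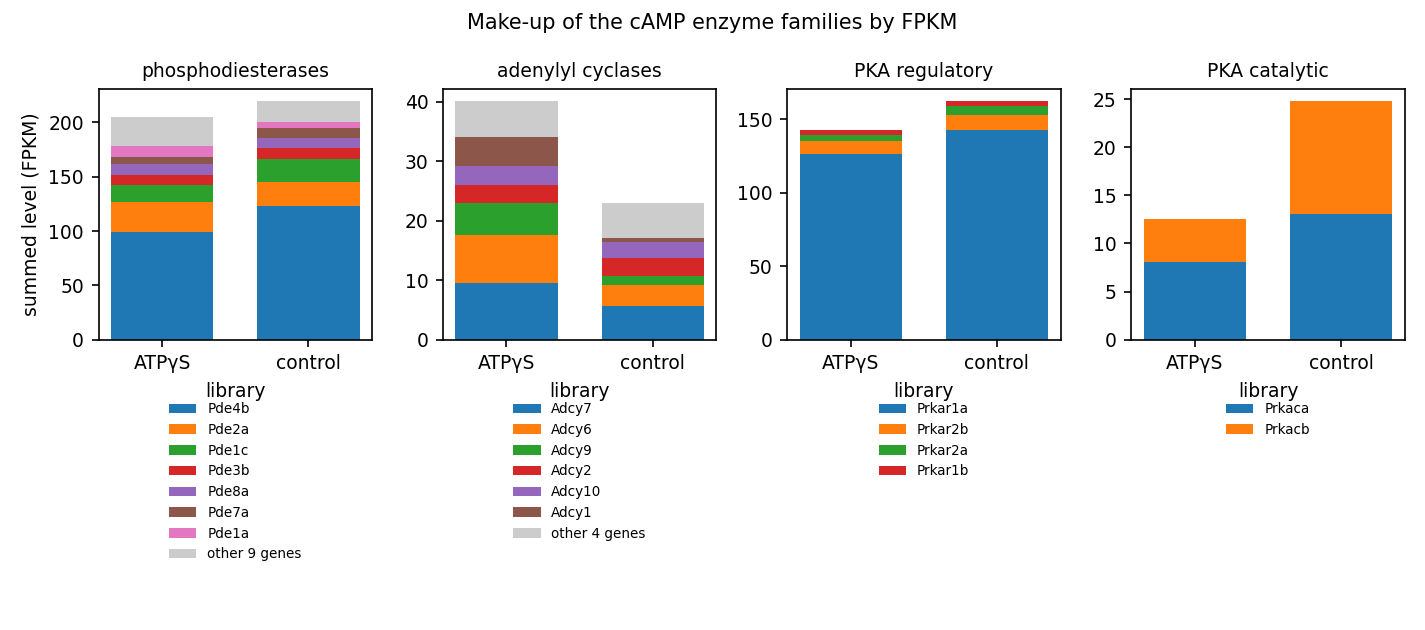
Summed FPKM of the cAMP phosphodiesterase, adenylyl cyclase, PKA regulatory and PKA catalytic subunit genes, with the ATPγS library left of the control library and a colour for each gene. Each panel has its own vertical axis from 0. Pde4b and Prkar1a are the most abundant genes of their families in both libraries, and the summed cyclases reach 40.1 FPKM with ATPγS and 22.9 FPKM in control.

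The subunit genes of PKA lay on the lower side. Prkaca, of the main catalytic subunit, stood at 8.07 FPKM with ATPγS and 13.1 FPKM in control (chromosome 8, 83972993 to 83996443, plus strand). Its ratio of 0.617 had an interval of 0.40 to 0.947 from about 42 and 51 reads. Prkar1a, of the type I alpha regulatory subunit that holds the kinase inactive, was the most abundant of the 10 genes at 127 FPKM with ATPγS and 143 FPKM in control (chromosome 11, 109649405 to 109669656, plus strand). Its ratio of 0.886 (interval 0.816 to 0.964) corresponds to a log2 ratio of -0.17, and rescaling to a median of 0 left it at -0.04. Prkar1a thus differed little from other abundant genes.

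Of the 9 genes of PKA subunits and PKA inhibitors, all 9 gave negative log2 ratios (8 once the libraries were rescaled to a median of 0). Of all 18311 genes 9075 lay below 0, and at a mean of 10 FPKM or more 3672 of 6125. Among the genes nearest in mean level Prkar1a, Prkar1b, Prkar2a, Prkar2b and Pkib exceeded 29.1% to 43.9%. Prkaca exceeded 22.95% of its neighbours, and Prkacb, Pkia and Pkig exceeded 4.19% to 8.58%. Counting intervals lay below 1 for Prkaca, Prkacb, Prkar1a, Pkia and Pkig and included 1 for Prkar1b, Prkar2a, Prkar2b and Pkib. No share over all genes was computed for such intervals. On the lower side 3 were past 2-fold and on the higher side 0, and the median was -0.43, against 0.01 over all genes. Of all genes 9.91% were past 2-fold on the lower side, with 10.9% at a mean of 1 to 5 FPKM and 11.2% at 5 to 20 FPKM. The 3 were Prkacb, of the other catalytic subunit (4.43 and 11.7 FPKM), Pkig, of a protein kinase inhibitor that binds the free catalytic subunit (19.02 and 41.4 FPKM), and, chosen after its values were seen, Pkia of the same inhibitor family (0.937 and 3.76 FPKM). After rescaling to a median of 0, 2 of them stayed past 2-fold. Prkar2b, of a type II regulatory subunit, stood at 8.87 and 10.1 FPKM.

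Summed over Prkaca and Prkacb the catalytic subunits stood at 12.5 FPKM with ATPγS and 24.8 FPKM in control, while the 4 regulatory subunits summed to 143 and 162 FPKM. Prkaca and Prkacb each lie below the 95th percentile of the receptor genes in both libraries. The ratio of regulatory to catalytic FPKM was 11.4 with ATPγS and 6.55 in control. Of the T and NK cell markers above 7 of 8 had log2 ratios below 0. The 6 B cell markers were mixed, with 4 below 0 and 2 above. Those above were Cd79b (84.2 and 83.1 FPKM) and Cd22 (6.00 and 1.73 FPKM). The part of lymphocytes in the PKA values was not tested.

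Prkar1a was the 1 gene among 8 matched in RefSeq promoter windows (GRCm38.p6) whose window held a complete cAMP response element, the palindrome TGACGTCA to which CREB binds. It lies 49 bases before the fifth of 6 listed starts. The search covered the 250 bases before each of 22 starts of these 8 genes, on both strands, and 1.55% of all 32851 windows held the palindrome. Crem and Pde7a had no listed window and were not searched. The core TGACG, or CGTCA on the opposite strand, which is also part of the palindrome, lay in 9 of the 22 windows of 6 genes (40.9%) and in 17.8% of all windows. Windows of 1 gene can overlap and share a site. Shown are the Prkar1a window with the complete element and, for the 2 genes past 2-fold and the most abundant phosphodiesterase, the windows that hold a core, 5′ to 3′ on the plus strand with the core or complete element in capitals.
Prkar1a, chr11:109650699-109650948: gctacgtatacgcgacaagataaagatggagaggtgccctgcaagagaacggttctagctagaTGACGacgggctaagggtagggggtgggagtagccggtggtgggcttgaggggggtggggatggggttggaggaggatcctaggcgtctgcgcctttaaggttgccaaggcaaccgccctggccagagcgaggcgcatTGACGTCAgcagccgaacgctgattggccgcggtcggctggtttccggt
Per1, chr11:69098699-69098948: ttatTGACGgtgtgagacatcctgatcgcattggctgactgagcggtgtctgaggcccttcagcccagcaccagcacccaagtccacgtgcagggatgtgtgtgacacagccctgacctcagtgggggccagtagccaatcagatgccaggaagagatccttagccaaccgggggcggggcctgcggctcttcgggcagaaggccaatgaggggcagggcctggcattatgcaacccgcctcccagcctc
Per1, chr11:69099902-69100151: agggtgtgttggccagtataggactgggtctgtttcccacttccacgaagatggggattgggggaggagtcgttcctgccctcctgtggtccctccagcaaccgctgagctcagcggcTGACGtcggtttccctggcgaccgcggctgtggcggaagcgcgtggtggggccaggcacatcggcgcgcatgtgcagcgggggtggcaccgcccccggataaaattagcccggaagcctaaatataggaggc
Pde4a, chr9:21183851-21184100: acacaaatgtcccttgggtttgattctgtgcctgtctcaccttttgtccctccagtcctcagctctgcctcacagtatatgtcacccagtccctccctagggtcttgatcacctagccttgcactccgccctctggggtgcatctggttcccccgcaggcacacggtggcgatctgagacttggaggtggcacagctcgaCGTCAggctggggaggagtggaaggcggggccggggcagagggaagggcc
Pde4b, chr4:102421305-102421554: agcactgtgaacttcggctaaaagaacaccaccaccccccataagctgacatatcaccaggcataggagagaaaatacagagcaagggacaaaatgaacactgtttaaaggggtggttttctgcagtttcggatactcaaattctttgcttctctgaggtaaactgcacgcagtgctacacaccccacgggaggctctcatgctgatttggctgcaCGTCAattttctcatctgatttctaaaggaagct

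In the second Per1 window the core lies 132 bases before the start, in the first 246 bases before it. The Pde4a core lies 50 and the Pde4b core 34 bases before the start. These letters were found in genes with ratios of 0.805 (Pde4b), 0.886 (Prkar1a), 5.62 (Per1) and 8.03 (Pde4a), so windows with a core were found at ratios on both sides of 1. A match describes the letters of a window and not the binding of a factor.

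Among the transcription factors, Crem was far above Creb1. Crem encodes activators and, from an internal promoter, the inducible repressor ICER, which the single value per gene does not separate. It stood at 101 FPKM with ATPγS and 98.1 FPKM in control (chromosome 18, 3266048 to 3337748, minus strand), and its interval of 0.886 to 1.201 includes no difference. GENCODE lists 32 coding transcripts of Crem from 436 to 2931 bases, so its level depends on how the authors' tool shared reads among them. Gm6225, on the opposite strand, overlaps exons of Crem and stood at 4.01 and 0.974 FPKM.

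Creb1, of CREB itself, stood at 8.99 FPKM with ATPγS and 5.54 FPKM in control (chromosome 1, 64532645 to 64604548, plus strand). The ratio was 1.62, with an interval of 1.19 to 2.25 from about 128 and 59 reads. The ratio of Crem to Creb1 was 11.3 with ATPγS and 17.7 in control. Of the summed FPKM of Creb1, Crem and Atf1, the third member of the family, Crem gave 71.6% with ATPγS and 75.9% in control.

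Of 11 genes of CREB factors, coactivators and salt-inducible kinases 10 passed the filter, and 0 reached 2-fold in either direction (median log2 ratio 0.16, with 8 above 0). Past 2-fold in either direction were 23.7% of all genes, and 9235 of 18311 lay above 0. Atf1 stood at 31.2 and 25.7 FPKM. Crtc2, of a coactivator that enters the nucleus when cAMP rises, hardly differed (66.3 and 65.2 FPKM). Crebbp, of the acetyltransferase that binds phosphorylated CREB, stood at 16.4 and 12.25 FPKM, and Sik3, of a kinase that keeps such coactivators in the cytoplasm, at 11.6 and 14.9 FPKM.

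Per1, a clock gene that CREB also switches on directly, had the largest log2 ratio of the 10 genes at a pseudocount of 1, while without a pseudocount the ratio of Pde4a was larger. It stood at 5.50 FPKM with ATPγS and 0.979 FPKM in control (chromosome 11, 69095217 to 69109960, plus strand). The ratio of 5.62 rests on about 73 and 10 reads, with an interval of 2.81 to 11.9. The log2 ratio of 1.715 exceeded that of 91.8% of the 250 genes next above and 250 next below it in mean level, and the log2 ratio of Pde4a exceeded 88.2% of its own neighbours, so larger log2 ratios were not rare at such levels. Per1 exceeded 74.1% of the receptor genes with ATPγS and 38.0% in control.

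**Figure D4:**
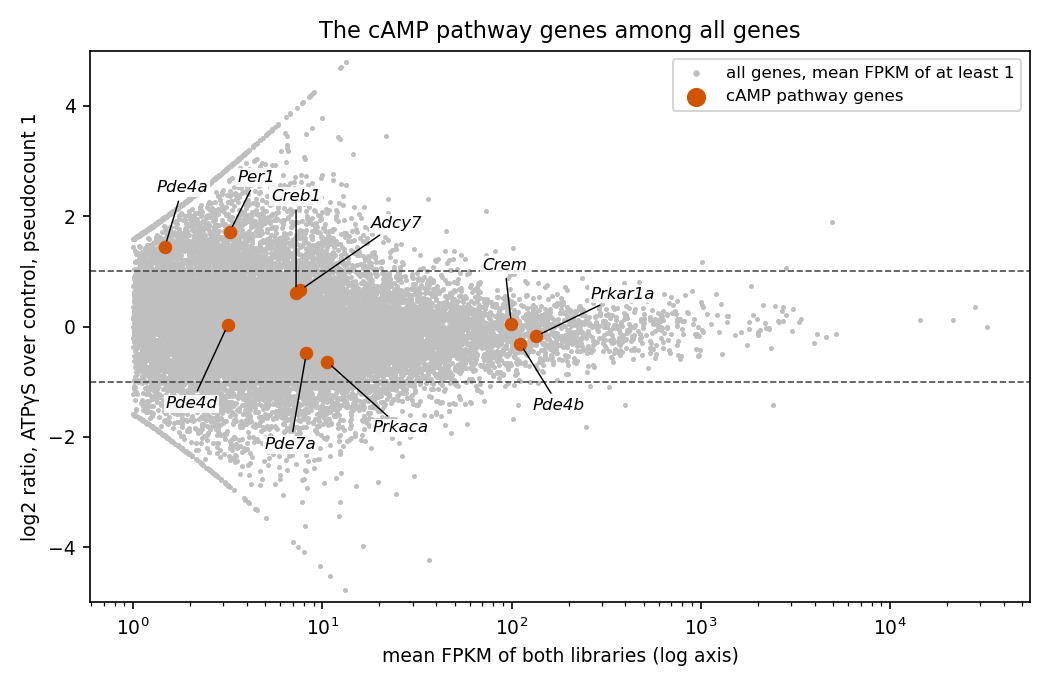
Log2 ratio, ATPγS over control with a pseudocount of 1, against the mean FPKM of both libraries on a log axis, for genes at a mean of at least 1 FPKM (grey) and the 10 genes (orange). Dashed lines mark 2-fold, and 43 genes lie beyond the vertical axis. Per1 and Pde4a lie above the upper line where many genes of their level do, and the 3 abundant genes lie near 0.

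The other CREB target genes had smaller log2 ratios than Per1. Of 20 such genes Per1 was the 1 past 2-fold on the higher side and 0 lay past it on the lower side, with a median log2 ratio of 0.13. In this list 13 genes lay above 0 and 7 below, against 9235 and 9075 of all 18311 genes. The 2-fold shares over all genes were 13.8% higher and 9.91% lower. Crem, Pde4b and Pde4d are themselves in this list and lay between -0.31 and 0.05. The orphan receptor genes Nr4a3 (log2 ratio 0.87) and Nr4a2 (0.81) came next after Per1. Abundant genes spread less, and among the genes nearest to each in mean level Nr4a3 exceeded 96.8%, Dusp1 93.8% and Nr4a2 90.8%, close to the 91.8% of Per1. Junb, chosen after its values were seen, also exceeded 91.8%, and Cebpb 88.4%. On the lower side Egr1, Fos and Rgs2, chosen after their values were seen, exceeded 26.95%, 37.5% and 31.5%. Their ratios were 0.842, 0.895 and 0.765, with counting intervals below 1. The lowest of the list among its neighbours was Sik1 at 23.35%, with an interval that includes 1. Dusp1, of a phosphatase of MAP kinases (994 and 667 FPKM), and Cebpb, of a transcription factor of myeloid cells (804 and 617 FPKM), were the most abundant.

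Of 14 clock genes 13 passed the filter, with Per1 past 2-fold on the higher side and 2 genes on the lower side. Among all genes 13.8% were past it on the higher side and 9.91% on the lower side. The lower genes were Nr1d1, of the repressor REV-ERB alpha (5.41 and 14.6 FPKM, interval of the ratio 0.25 to 0.542), and Cry2, of a cryptochrome that works with PER proteins (4.50 and 10.3 FPKM, interval 0.305 to 0.628). Under both rescalings the second of these was no longer past 2-fold. Cry1 (31.0 and 31.9 FPKM) hardly differed, and Bhlhe40, of a repressor of clock genes, was the most abundant (144 and 115 FPKM). The other Period genes, chosen after their values were seen, stood at 3.66 and 2.51 FPKM for Per2 and 4.40 and 3.315 FPKM for Per3, with intervals that include no difference.

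**Figure D5:**
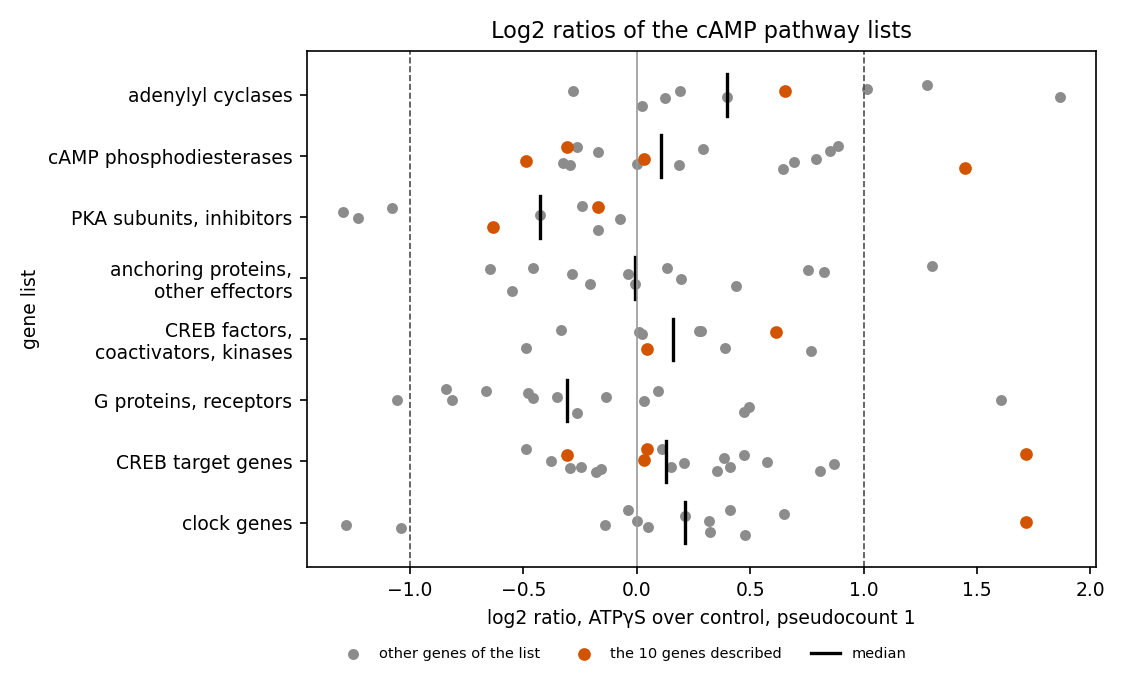
Log2 ratio, ATPγS over control with a pseudocount of 1, of each gene past the filter in 8 lists of the cAMP pathway, with the 10 genes described in orange, the other genes in grey and a bar at each list's median. Dashed lines mark 2-fold. The cyclases lie mostly right of 0, and all PKA subunit and inhibitor genes lie left of it as deposited.

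Upstream of the cyclases, 1 of 14 genes of G proteins and receptors was past 2-fold on the higher side with ATPγS, and the list had a median log2 ratio of -0.31. The higher gene was Hrh2, of a histamine receptor that stimulates cyclases (10.1 and 2.64 FPKM, interval of the ratio 2.17 to 6.87). Its levels lie below the 95th percentile of the receptor genes, and 13.8% of all genes were past 2-fold on the higher side. Gnas, of the stimulatory G protein, stood at 145 and 203 FPKM, and Gnai2, of an inhibitory one, at 169 and 203 FPKM.

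Of 13 genes of anchoring proteins and other cAMP effectors, 1 was past 2-fold on the higher side and 0 on the lower side, with a median of -0.01. The 1 was Rapgef4, of a Rap exchange factor that cAMP activates without PKA (11.5 and 4.06 FPKM, interval 1.92 to 4.15). Its levels also lie below the 95th percentile of the receptor genes. Akap10, of a protein that tethers PKA to mitochondria, stood at 6.94 and 11.4 FPKM. Akap13 (17.7 and 18.2 FPKM) and Akap8 (13.6 and 16.9 FPKM), of other anchoring proteins, were the most abundant. Over all 8 lists, 98 of 101 genes passed the filter, with 7 past 2-fold on the higher side, 6 on the lower side and a median log2 ratio of 0.03, close to the 0.01 of all genes. For these lists and for the anchoring list the shares to set beside them are 13.8% and 9.91% of all genes.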

How the data were processed

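The authors deposited 1 FPKM value per gene symbol for each of 2 libraries, for which the submitters' processing notes name Cufflinks 2.2.1, TopHat2 2.0.13, SAMtools 0.1.19, Bowtie2 2.2.3 and the mouse build mm10. Per the labels' protocols, cDNA came from the SMART-Seq HT kit and libraries from the Nextera kit. The annotation and tool options are not stated there.

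From the FPKM a log2 ratio, log2((ATPγS + 1) / (control + 1)), was computed. The pseudocount makes differences of low genes look smaller. Genes averaging 1 FPKM or more over both libraries were counted past 2-fold. A fold or ratio printed with a gene is that of its FPKM without the pseudocount. FPKM are not counts, so no count test was run, and with 1 library per group no p-value was computed. Depth came from 1309 olfactory and vomeronasal receptor genes, in which FPKM multiplied by coding length falls on steps of 1 read. Of values under 10 reads, 70.3% (ATPγS) and 71.3% (control) were within 0.05 of a whole read (10% by chance). Estimated reads used the median length of its GENCODE M21 (GRCm38) transcripts with a RefSeq mRNA and are approximate. Of the symbols 23310 (95.7%) had a length. Intervals are 95% Clopper-Pearson intervals of the exact binomial and hold counting error alone. Promoter sequences are from RefSeq (GRCm38.p6).

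The 10 genes are all named. From each of 8 pathway lists, the 2 other genes with the largest absolute log2 ratio at a mean FPKM of at least 5 and the 2 most abundant are named. The result of 1 gene that this rule names is not reported here. Members and lists were chosen with earlier results of these data known. Alternatives were pseudocounts of 0.1 and 5, 2 rescalings, no filter or a minimum mean of 5 FPKM, and thresholds of 1.5-fold and 3-fold. The steps were tested on simulated data. Python 3.11.15, pandas 2.3.3, numpy 2.4.6 and scipy 1.17.1 were used.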

Additional observations from a re-analysis of the deposited data

How the results depend on the processing

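Counts below are genes past 2-fold on the higher and on the lower side with ATPγS. At the main settings they were 2 and 0 of the 10 genes, 7 and 6 of the pathway lists and 2521 and 1815 of all genes. With a pseudocount of 5 they were 0 and 0, 0 and 0, and 561 and 461. At a mean FPKM of at least 5, which leaves Per1, Pde4a and Pde4d out, they were 0 and 0, 3 and 5, and 740 and 894. At 1.5-fold they were 4 and 1, 20 and 11, and 4408 and 3782, and at 3-fold 1 and 0, 3 and 0, and 1154 and 611. With a pseudocount of 0.1 the lists had 12 higher, and after rescaling to a median of 0 they had 3 lower. The other counts, those without a filter and those rescaled to the same sum (a shift of 0.055 on the log2 scale) were within 1.5 times the main ones. The median log2 ratio of the 10 genes ran from -0.17 (mean FPKM of at least 5) to 0.15 (rescaled to a median of 0). Over both pseudocounts and both rescalings, the sign of each gene's log2 ratio was kept in 40 of 40 values, and 39 moved by less than the log2 distance between the gene's ratio and the bound of its counting interval on that side. Prkar1a moved by more after rescaling to a median of 0 (-0.04). With a pseudocount of 5 the log2 ratios of Per1 (0.81) and Pde4a (0.52) were under the lower bounds of their intervals, which are set without a pseudocount.

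Estimating reads from the longest coding transcript, chosen after seeing the data, left every interval of the 10 genes on its side of 1, with 2.76 to 44.4 for Pde4a. Depth limits Pde4a most, with about 2 control reads. No paired analysis was possible because each group has 1 library.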

Other observations

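Several cyclase and phosphodiesterase genes known chiefly from neurons and other excitable cells were listed at levels like those of the receptor genes, and were chosen here after their values were seen. Adcy2 stood at 3.05 FPKM with ATPγS and 2.99 FPKM in control, Adcy8 at 2.63 and 1.76 FPKM, and Pde10a, a phosphodiesterase of the striatum, at 2.67 and 1.35 FPKM. The counting intervals of Adcy2 (0.609 to 1.75) and Adcy8 (0.919 to 2.50) include no difference, and that of Pde10a runs from 1.11 to 3.83. Receptor genes were listed above 0 in 83.3% of cases with ATPγS and 73.6% in control.

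The inhibitory G protein gene Gnai3, also chosen after its values were seen, stood at 60.2 FPKM with ATPγS and 107 FPKM in control, and counting error put its ratio between 0.505 and 0.631. At a mean of at least 20 FPKM, 5.0% of all genes were at least 2-fold lower, and Gnai3 did not reach that fold. The prostaglandin receptor genes Ptger2 (17.1 and 18.9 FPKM) and Ptger4 (8.75 and 12.4 FPKM), of receptors that raise cAMP, differed less.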
